A study of Mus musculus with 6 samples.

Results

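The complement genes described here are a group of 9 in the transcriptome of hair follicle bulge stem cells (SCs), out of 43274 genes in the table. They are the 3 chains of the recognition protein C1q (C1qa, C1qb and C1qc), the protease gene C1ra, the central component C3, factor B (Cfb), properdin (Cfp) and the receptors C3ar1 and C5ar1. The Ensembl identifier of each was matched to its mouse symbol, and all 9 were found. They were picked with their levels in ILK-K5 and control bulge SCs known, C1qc having the greatest log2 fold change of all genes called by limma at a pseudocount of 1, although C1qb exceeded it with edgeR, with DESeq2 and in the FPKM table. The differences between the genotypes in these 9 genes are therefore given as a description, without a p-value.

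Bulge SCs, CD34+ cells with high α6 integrin, were sorted by FACS from mouse epidermis at postnatal day 21. Each genotype is represented by 3 RNA-seq libraries. Control mice carried 1 floxed and 1 wild-type Ilk allele with the K5-Cre transgene (ILK +/- in the labels), and ILK-K5 mice carried 2 floxed alleles with the same transgene (ILK -/-). Cre was thus present in both genotypes, under the keratin 5 promoter, which is active in the basal epithelium of the skin. The labels do not say whether the libraries of a genotype came from separate mice, so that p-values measure the spread between these libraries, which may be partly technical.

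Complement is a cascade of plasma and tissue proteins that tags particles and cells for removal. C1q, built from equal numbers of its A, B and C chains, binds to antibodies or to surfaces and carries the proteases C1r and C1s, which start the classical pathway. The lectin pathway starts from mannose-binding lectin and ficolins, and the alternative pathway runs through C3, factor B, factor D and the stabilizing protein properdin. All of them cleave C3, whose fragments mark the target and signal through the C3a receptor, and the later fragment C5a signals through the C5a receptors. In most tissues C1q is made by macrophages and immature dendritic cells, whereas epithelial cells and fibroblasts can make C1r, C1s, C3 and factor B.

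Reads counted on genes numbered between 8228019 and 11969072 per library, and 1 read was worth between 0.726 and 1.52 normalized counts. The targeted gene Ilk did not separate the genotypes, with normalized counts of 10.6, 16.7 and 38.5 in control and 14.8, 30.9 and 29.2 in ILK-K5 libraries. Genes on the opposite strand overlap 89.7% of its exonic sequence, and whether their reads entered the values of Ilk was not tested. Markers of bulge SCs and of basal keratinocytes were abundant in all libraries, with summed normalized counts of 42883 to 106671 and 65953 to 108793 in control and of 19928 to 46421 and 64545 to 80771 in ILK-K5 libraries. Of the 6 bulge SC markers only Cd34 was called, lower in ILK-K5 (adjusted p = 0.0239, limma). Markers of leukocytes were not absent from the sorted cells. The 15 genes of a macrophage list summed to between 947 and 1381 normalized counts in control and to between 16185 and 21839 in ILK-K5 libraries. Of the 14 tested, 13 were called higher, against 2.93% of all genes tested. Fcgr1, Fcgr3, Aif1, Cd14 and Mrc1 had control means under 10 normalized counts and were tested only through their ILK-K5 libraries. The part of the macrophage list in the values of the complement genes was not tested. A larger share of macrophages and more RNA per macrophage cannot be told apart in bulk libraries.

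The genes for the C1q chains lie side by side on chromosome 4 of GRCm38, all on the minus strand and within 18.7 kb. C1qb spans 136880129 to 136886187, C1qc 136889804 to 136893065 and C1qa 136895917 to 136898803. No exon base of any of them is shared with another annotated gene, and no stretch of 50 bases of their longest transcripts occurs in a transcript of another gene, so that their reads could be assigned without conflict. The promoters of C1qb and C1qc are shown here because these neighbouring genes rose together, and that of C3ar1 because it was the third of the abundant transcripts. RefSeq gives a promoter on GRCm38.p6 for 7 of the 9 genes, the exceptions being C1qa and Cfb. The 250 bases before the start site are printed 5′ to 3′ along the gene, chr4:136886201-136886450 for C1qb, chr4:136892915-136893164 for C1qc and chr6:122856158-122856407 for C3ar1, all on the minus strand, with capitals for motif matches. The start sites are those of RefSeq. That of C1qc lies downstream of the outermost GENCODE start, so that 151 of its 250 printed bases are within the gene span given above, as are 4 of C3ar1 and 0 of C1qb.
C1qb: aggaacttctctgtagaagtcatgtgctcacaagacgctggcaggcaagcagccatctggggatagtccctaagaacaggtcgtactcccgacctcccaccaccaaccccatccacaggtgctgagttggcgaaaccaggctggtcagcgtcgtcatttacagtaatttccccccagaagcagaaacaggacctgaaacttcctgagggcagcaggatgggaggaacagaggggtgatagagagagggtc
C1qc: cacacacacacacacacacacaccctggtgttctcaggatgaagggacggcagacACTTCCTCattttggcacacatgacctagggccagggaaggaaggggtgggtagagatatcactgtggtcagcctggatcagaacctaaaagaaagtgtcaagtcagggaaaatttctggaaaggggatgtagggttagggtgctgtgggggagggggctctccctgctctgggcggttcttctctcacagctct
C3ar1: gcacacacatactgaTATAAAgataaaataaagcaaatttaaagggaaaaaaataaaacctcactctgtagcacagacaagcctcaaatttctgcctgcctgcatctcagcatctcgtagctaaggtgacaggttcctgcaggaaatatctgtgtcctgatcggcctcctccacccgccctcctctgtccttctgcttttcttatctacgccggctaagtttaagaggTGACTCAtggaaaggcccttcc

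Of 5 motifs searched on both strands, the word GAGGAAGT, recognized by the myeloid factor PU.1, was found in 1 of the 7 promoters, that of C1qc, where it reads on the opposite strand from 195 to 188 bases before the RefSeq start. It occurred in 2.44% of 32851 promoters of the same length. C3ar1 held a match to the AP-1 word TGANTCA, 22 to 16 bases before its start, which occurred in 6.75% of all promoters, and to the TATA word TATAAA, 235 to 230 bases before it, which occurred in 12.4%. The C/EBP word TTGCNNAA (9.56% of all promoters) was found in that of C3 only. The interferon response element, written as GAAA, any 2 bases and GAAA again (2.98%), was found in none of the 7. None of the 5 words lay in the window of C1qb. This gene and C1qc had the highest levels per length of the 9 in ILK-K5 libraries.

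The C1q chains were close to undetected in control and abundant in ILK-K5 libraries. Which of the sorted cells held these transcripts was not tested. C1qb, the B chain, had normalized counts of 0.965, 3.04 and 1.45 in control libraries 1 to 3 and of 924, 1292 and 911 in ILK-K5 libraries 1 to 3. The control values correspond to 1, 2 and 2 reads. With the controls set to a floor of 3 reads per library, the rise of C1qb was at least 325-fold. C1qc, the C chain, had 0, 0 and 4.35 normalized counts in control and 732, 1455 and 1003 in ILK-K5 libraries. All 6 control reads of C1qc came from library 3, and its log2 fold change, computed on the normalized count plus 1, was 9.19 (standard error 0.70, n = 3 per genotype). With 2 controls at 0 this value depends on what is added, from 7.38 with 5 to 11.49 with 0.1, and it was 9.999 without control library 3. C1qa, the A chain, had 1.93, 0 and 0 normalized counts in control and 63.8, 61.7 and 38.0 in ILK-K5 libraries. Here 2 reads in 1 control library stood against 56, 80 and 39 reads in the ILK-K5 libraries, and C1qa was at least 17.0-fold higher. For each chain all ILK-K5 libraries lay above all control libraries, and replicate 2 of ILK-K5 was the highest for C1qb and C1qc but not for C1qa.

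The chains did not reach the same level. On the scale of FPKM, in which counts are divided by exon length, C1qb stood at 98.2 ± 20.4 (SD, n = 3) in ILK-K5, C1qc at 56.5 ± 19.4 and C1qa at 5.37 ± 1.41. C1qb exceeded C1qa 13.9-, 20.0- and 22.9-fold in ILK-K5 libraries 1 to 3, with a mean of 18.9 ± 4.62 (SD, n = 3). C1qc exceeded C1qa 6.18-, 12.7- and 14.2-fold, with a mean of 11.0 ± 4.27 (SD, n = 3). On this scale the 3 ILK-K5 libraries shared the order of C1qb over C1qc over C1qa, and the gap to C1qa was wider in libraries 2 and 3 than in library 1. The FPKM table divides C1qc by all of its 1931 annotated exon bases, although its longest transcript has 1203. With that transcript as the length, a choice made on seeing these values, the ratio of C1qc to C1qa was 17.7 instead of 11.0, and that of C1qb to C1qa stayed at 18.9. The order of C1qb and C1qc then did not hold in every library, since C1qc exceeded C1qa 9.93-, 20.4- and 22.8-fold, against 13.9-, 20.0- and 22.9-fold for C1qb. Both remained above C1qa in all 3 libraries. The longest transcripts of the chains have similar lengths of 1040 (C1qa), 1088 (C1qb) and 1203 bases (C1qc), and a similar GC content of 59.5%, 57.4% and 57.5%.

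**Figure D1:**
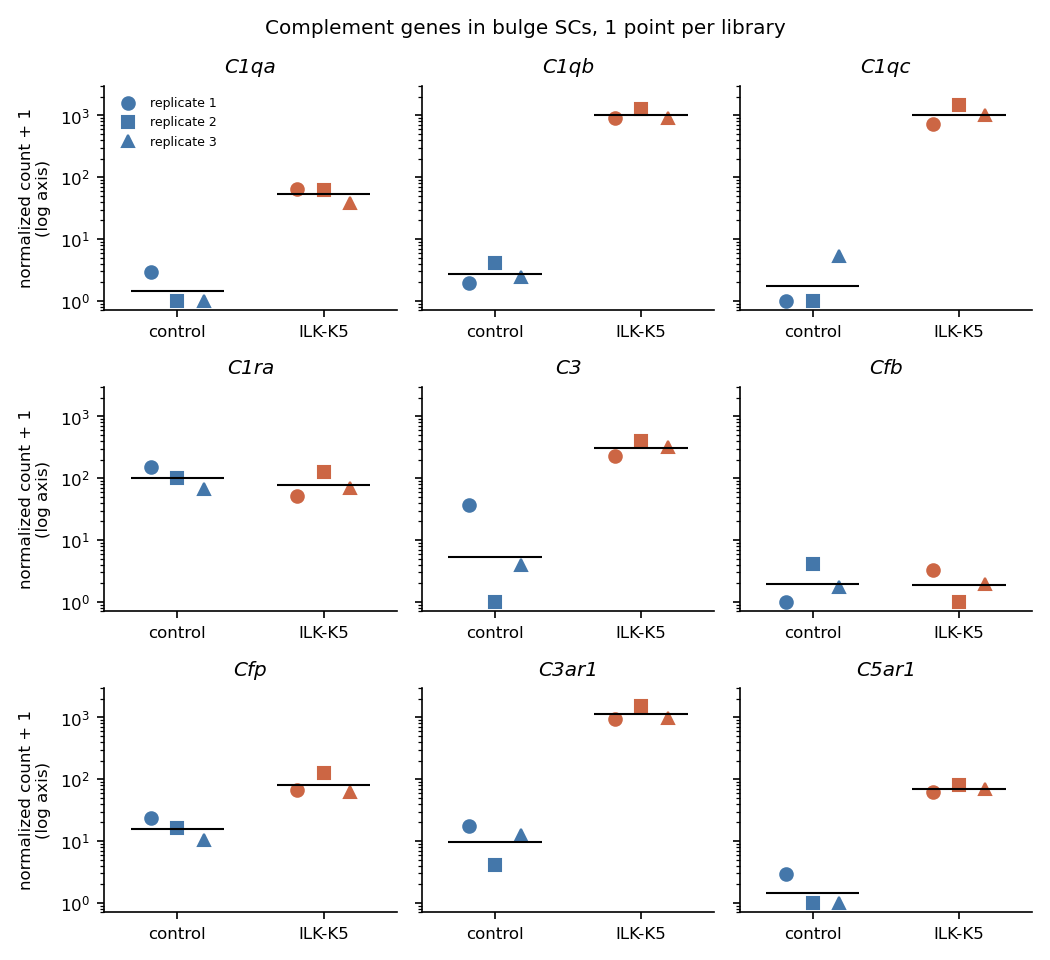
Normalized count plus 1 (log axis) of each of the 9 complement genes in the 3 control (blue) and 3 ILK-K5 libraries (orange), 1 point per library with a symbol for its replicate number. Horizontal lines are means on the log scale. The genotypes do not overlap for C1qa, C1qb, C1qc, C3, Cfp, C3ar1 and C5ar1, overlap for C1ra, and Cfb stays at no more than 2 reads in every library.

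C1ra, which encodes a C1r protease, did not follow the C1q chains. It is located on chromosome 6 from 124512405 to 124523443 (plus strand) and had 151, 102 and 65.3 normalized counts in control and 50.1, 125 and 69.2 in ILK-K5 libraries. The genotypes overlapped, and the log2 fold change was -0.40 (standard error 0.47), turning to 0.19 when replicates 2 and 3 alone were used. Of the 50-base stretches of C1ra, 48.0% occur also in its duplicate C1rb, so that reads may have been divided between the genes or lost. C1rb had 101, 22.8 and 26.1 normalized counts in control and 14.8, 46.3 and 27.3 in ILK-K5 libraries, also with overlap (log2 fold change -0.55, adjusted p = 0.875 from limma with Benjamini-Hochberg adjustment over all genes tested).

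C3 and properdin were higher in ILK-K5 libraries, whereas factor B was not detected in either genotype beyond 2 reads. C3, the component on which the pathways converge, lies on chromosome 17 from 57203970 to 57228136. It had 35.7, 0 and 2.90 normalized counts in control and 225, 400 and 317 in ILK-K5 libraries. The genotypes did not overlap, but the controls differed widely among themselves, with 37 of their 41 reads in library 1. The log2 fold change was 5.87 (standard error 1.09), and it was 7.28 without control library 1 and 4.68 without control library 2. Cfp, on the X chromosome from 20925454 to 20931555, had 22.2, 15.2 and 9.43 normalized counts in control and 66.0, 124 and 62.3 in ILK-K5 libraries. This was the smallest separation among the genes that did not overlap, at 2.36 on the log2 scale (standard error 0.53). Cfp was called in 6 of the 10 alternatives that tested it and in 1 of the 6 fits that left out a library.

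Cfb, on chromosome 17 from 34856374 to 34862518, had 0, 3.04 and 0.726 normalized counts in control and 2.28, 0 and 0.974 in ILK-K5 libraries. These values stand for 3 reads in all control and 3 in all ILK-K5 libraries, and a difference was not detectable at this depth. The annotation places 79.5% of the exon bases of Cfb also in Gm20547, a gene that reads through from C2 on the same strand, and Gm20547 itself was listed with 0 reads in every library. Where a counting program drops reads that fit both genes, most reads of Cfb would not appear in the table, and the handling of such reads is not given in the sources used here. C2, 46.9% of whose exonic sequence overlaps other genes, was below the limit for testing. The low count of Cfb therefore does not show that the gene was silent.

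Both anaphylatoxin receptors of the group were higher in ILK-K5 libraries. C3ar1, the receptor for the C3a fragment, lies on chromosome 6 from 122847138 to 122856161 and had 16.4, 3.04 and 11.6 normalized counts in control and 949, 1544 and 973 in ILK-K5 libraries. The log2 fold change was 6.87 (standard error 0.55). C5ar1, the receptor for C5a, lies on chromosome 7 from 16246743 to 16259540 and had 1.93, 0 and 0 normalized counts in control and 60.3, 80.2 and 69.2 in ILK-K5 libraries. With 2 reads in all controls, it was at least 21.8-fold higher. ILK-K5 library 2 held the highest value of both receptors, as it did for C1qb, C1qc, C3 and Cfp.

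Of the 9 genes, 8 passed the limit of a mean of 10 normalized counts, and 7 of them were called higher (adjusted p up to 0.05), the exception being C1ra. Among all 16368 genes tested, 3.53% were called in either direction and 2.93% were called higher, and all ILK-K5 libraries lay above all controls for 10.9%. The genes were chosen on this contrast, so that nothing can be read from the 7. In addition, C1qa, C1qb, C1qc and C5ar1 passed the limit only through their ILK-K5 libraries, while Cfp, C3, C3ar1 and C1ra had a mean of at least 10 in the controls as well. The number of called genes rested on single libraries. It was 4 without ILK-K5 library 1 or 3 and 3 without ILK-K5 library 2. C1qb, C1qc and C3ar1 were called in all 6 fits that each left out a library. These calls too describe genes chosen on this contrast and give them no support.

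The order of the levels per length differed between the genotypes. In control libraries C1ra led with 3.96 ± 1.61 FPKM (SD, n = 3), above the range of the next gene, Cfp, with 0.922 ± 0.377. From Cfp down to C5ar1 each gene overlapped with the next one in the order, at means of 0.256 FPKM (C3) and less. In ILK-K5 libraries C1qb and C1qc led, followed by C3ar1 with 27.5 ± 8.02 FPKM. The values of each of these 3 genes did not overlap with those of the next gene. The separation of C1qb from C1qc holds for the exon length used in the FPKM table, and not for the longest transcript of C1qc. C3 (6.26 ± 1.74 FPKM), C1qa (5.37 ± 1.41), Cfp (4.97 ± 2.05), C1ra (3.03 ± 1.45) and C5ar1 (2.79 ± 0.397) formed a lower group in which neighbours overlapped. Cfb was last with 0.0393 ± 0.0415 FPKM.

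**Figure D2:**
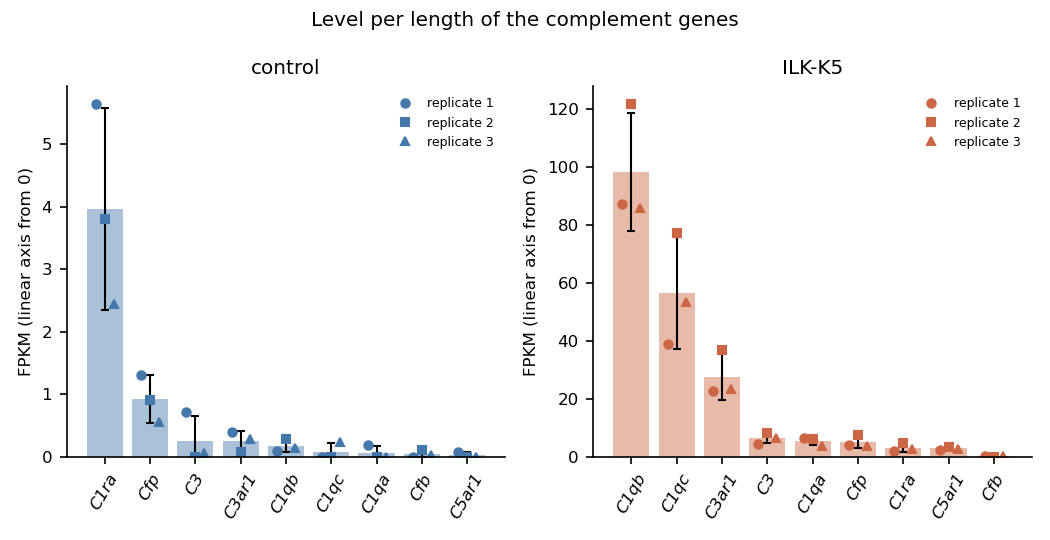
Level of the 9 complement genes in FPKM (linear axes from 0, with different ranges) in control and ILK-K5 libraries, ordered by the mean of the genotype. Bars are means of 3 libraries, whiskers 1 SD (cut off at 0) and points single libraries. C1ra leads in control at 3.96 FPKM, and C1qb, C1qc and C3ar1 lead in ILK-K5 at 98.2, 56.5 and 27.5 FPKM.

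Measured against the macrophage markers, the genes gave different ratios. The list sum was 947 to 1381 in control and 16185 to 21839 in ILK-K5 libraries. A gene that rose less than this sum must therefore have a lower ratio in ILK-K5. Relative to each 1000 normalized counts of the macrophage list, the C1q chains together had no more than 5.31 normalized counts in any control library and 105, 129 and 121 in ILK-K5 libraries. C1qb showed little variation on this scale, with 56.3, 59.2 and 56.3 in ILK-K5 libraries 1 to 3, a coefficient of variation of 2.89% compared with 20.7% for its normalized counts. The ratio of C3ar1 varied by 10.9% and that of C5ar1 by 8.93%, compared with 29.1% and 14.2% for their normalized counts. The ratio of C1qc, with 44.6, 66.6 and 62.0, varied by 20.1%, compared with 34.3% for its normalized counts. That of C1qa varied by 26.0% and its normalized count by 26.3%. The ratios of C3, Cfp and C1ra varied by 17.8%, 22.4% and 30.7%, and their normalized counts by 27.7%, 41.2% and 47.8%. The ratio of C3 overlapped between the genotypes, with 37.7, 0 and 2.65 in control and 13.7, 18.3 and 19.6 in ILK-K5 libraries. C1ra and Cfp had lower ratios in all ILK-K5 than in all control libraries, at 3.05 to 5.72 against 59.7 to 160 for C1ra and 3.85 to 5.69 against 8.63 to 23.4 for Cfp. Their normalized counts were not lower in this way, since those of C1ra overlapped and those of Cfp were higher in all ILK-K5 libraries. The list sum in the controls was mostly Mertk, at 506 to 961 normalized counts, which was not called between the genotypes (log2 fold change -0.01), whereas Fcgr1 was at 0 and Aif1 and Cd14 at no more than 3 reads in every control library.

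**Figure D3:**
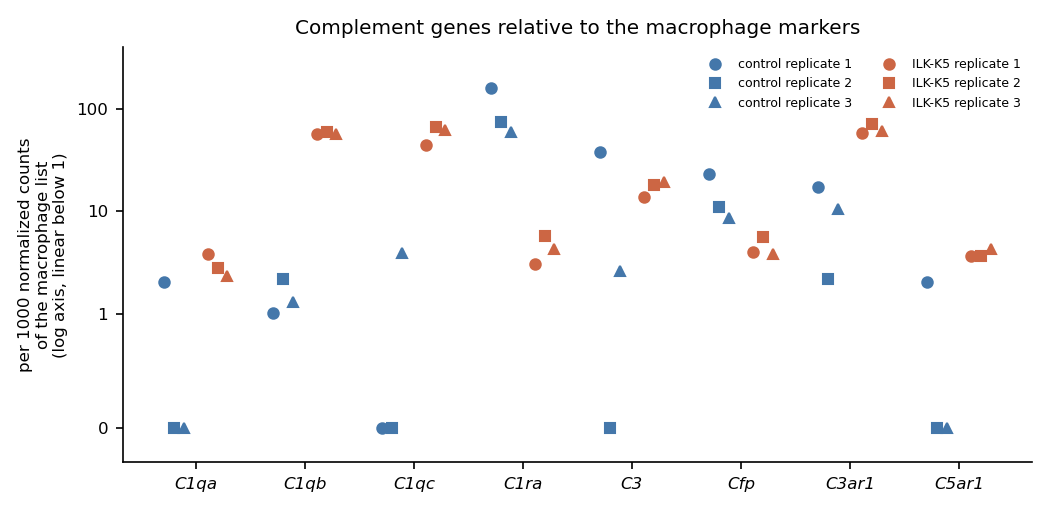
Normalized counts of 8 complement genes per 1000 normalized counts summed over the 15 macrophage markers (log axis, linear below 1), 1 point per library, controls in blue and ILK-K5 in orange. C1qb lies between 56.3 and 59.2 and C1qc between 44.6 and 66.6 in ILK-K5 libraries. The ratio of C3 overlaps between the genotypes, and the ratios of C1ra and Cfp are lower in ILK-K5, where the marker sum is higher. The normalized counts of C1ra overlap, and those of Cfp are higher in ILK-K5.

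Other marker lists moved with the genotype as well. Of all genes tested, 2.93% were called higher and 0.599% lower. The 5 general leukocyte markers, which include Ptprc, summed to 39.6 to 107 normalized counts in control and 2877 to 3734 in ILK-K5 libraries, and all 5 were called higher. Of these, Coro1a, Cd52 and Cd53 had control means under 10 normalized counts and were tested only through their ILK-K5 libraries. Markers of Langerhans and dendritic cells summed to 80.1 to 546 and 10703 to 18107, with 2 of 6 tested genes called higher. These 2, Cd74 and H2-Aa, made up most of the ILK-K5 sum, at 2529 to 11358 and 4525 to 8878. Cd207, Flt3, Zbtb46 and Xcr1 were not called. Flt3 and Zbtb46 overlapped between the genotypes, whereas Cd207 and Xcr1 lay above all controls in all ILK-K5 libraries. Fibroblast markers, at 703 to 779 in control and 1532 to 2493 in ILK-K5 libraries, had 1 of 4 tested genes called higher (Col3a1). Col1a1 and Col1a2 lay above all controls in all ILK-K5 libraries but were not called, and Dcn overlapped between the genotypes. Pdgfra, which also overlapped, and Lum, which was at 0 in all controls, were not tested. Neutrophil markers summed to 33.4 to 50.2 and 217 to 295 (2 of 4 called higher). The called genes, S100a8 and S100a9, had control means under 10 normalized counts and were tested only through their ILK-K5 libraries. Csf3r and Cxcr2 lay above all controls in all ILK-K5 libraries but were not called. Ly6g went the other way, with 11, 2 and 2 reads in control and 0 in every ILK-K5 library, and was not tested. Retnlg, Ngp and Camp had no more than 3 reads in any library. T cell markers summed to 158 to 178 and 294 to 365 (1 of 5 called higher). The called gene, Cd2, had a control mean of 0.726 normalized counts and was tested only through its ILK-K5 libraries. Mast cell markers reached 3.04 in control and 20.1 to 22.4 in ILK-K5 libraries, with Kit alone above 3 reads, and were not called. B cell, endothelial and differentiated keratinocyte sums overlapped between the genotypes, with 0, 0 and 1 gene called (Lor, lower). The part of these lists in the complement values was not tested.

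The rest of the complement system showed which other components were measured in the same libraries. A list of 48 further complement genes had 21 with enough counts for a test, and 4 of these were called higher and 1 lower. Their median log2 fold change was 0.08, compared with 0.01 for all genes tested, of which 2.93% were called higher and 0.599% lower. The genes called higher were all receptors, namely 4 of the 5 receptor genes tested. Of these 5, Itgb2 and C5ar2 had control means of 5.19 and 8.20 normalized counts and were tested only through their ILK-K5 libraries. Without the integrin chains, which leukocytes use for adhesion in addition to binding C3 fragments, 1 of 18 tested genes was called higher and 1 lower.

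Itgam, the α chain of complement receptor 3, had 197, 190 and 45.7 normalized counts in control and 2058, 1903 and 1712 in ILK-K5 libraries. The rise was 3.96 on the log2 scale (standard error 0.51, adjusted p = 0.00263, limma). Itgax, the α chain of complement receptor 4, had 7.72, 13.7 and 10.9 normalized counts in control and 1043, 770.5 and 767 in ILK-K5 libraries, a rise of 6.21 (standard error 0.36, adjusted p = 7.82e-05, limma). Their shared β chain Itgb2 rose by 6.92 (standard error 0.83, adjusted p = 0.00198, limma), from no more than 12.5 to at least 389 normalized counts. The rise was 7.84 without control library 1 and 5.96 without control library 3. The control mean of Itgb2 was 5.19, so that it passed the limit for testing only through its ILK-K5 libraries. Cd93, a surface protein first described as a C1q receptor, rose from 10.6, 10.6 and 13.1 to 157, 113 and 97.4 normalized counts (log2 fold change 3.29, standard error 0.45, adjusted p = 0.00358, limma). These 4 genes were called in all 6 fits without 1 library. C5ar2, the second receptor for C5a, was higher in all ILK-K5 libraries but was not called (22.8 to 34.1 against 4.56 to 13.5 normalized counts, log2 fold change 1.81, adjusted p = 0.234, limma). Vsig4, a C3b receptor of tissue macrophages, had 1, 0 and 6 reads in control and 0 in every ILK-K5 library. Both Vsig4 and Cr2, which is found on B cells, were below the limit for testing.

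Among the 16 further genes of the classical and lectin pathways, 6 were tested and none was called by limma, nor was any called by edgeR or DESeq2, and 0 had an unadjusted p below 0.05. C1s1, the C1s protease that acts with C1r, had 567, 1362 and 985 normalized counts in control and 466, 1173 and 1051 in ILK-K5 libraries (log2 fold change -0.14, standard error 0.43, adjusted p = 0.958, limma). Its duplicate C1s2, which shares 26.9% of its 50-base stretches with C1s1, gave a log2 difference of 0.08 (standard error 0.42, adjusted p = 0.974, limma) and did not pass the test. C1s1 exceeded C1ra in each of the 6 libraries, with 18.6 against 5.65 FPKM in control library 1 and 32.3 against 2.43 in control library 3. Of the 50-base stretches of C1ra 50.8% occur also in other genes, against 24.3% for C1s1. Reads of both may have been divided or lost, to unlike extents. C2, C4a and C4b, the substrates of C1s, were below the limit for testing, as were both mannose-binding lectins and both ficolins. Fcna, the ficolin of macrophages, had 0, 0 and 0.726 normalized counts in control and 18.2, 7.71 and 3.90 in ILK-K5 libraries, at least 3.10-fold higher and not tested; it was singled out after its values were seen.

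The later steps of the cascade were hardly represented. Factor D (Cfd) had 0 reads in all 6 libraries, and C5 (Hc) was below the limit for testing. Of the 6 terminal components that form the membrane pore, C9 alone was tested, with 53.1, 39.5 and 23.2 normalized counts in control and 12.5, 26.2 and 28.2 in ILK-K5 libraries, which overlapped (log2 fold change -0.77, standard error 0.56, adjusted p = 0.735, limma).

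Of 17 regulators that restrain complement 9 had enough counts for a test, and 1 of these fell. Cd55, which speeds the decay of C3 convertases on the cell surface, had 530, 730 and 795 normalized counts in control and 273, 123 and 186 in ILK-K5 libraries. It fell by 1.87 on the log2 scale (standard error 0.35, adjusted p = 0.0191, limma), and all ILK-K5 libraries lay below all controls, as they did for 6.95% of all genes tested. The call was lost without control library 2 (adjusted p = 0.0985), ILK-K5 library 2 (0.0882) and ILK-K5 library 3 (0.0774), with a fall of 1.58 or more in each of these fits. Its duplicate Cd55b, with 16.4, 35.0 and 35.6 normalized counts in control and 10.2, 3.09 and 4.87 in ILK-K5 libraries, was not called (log2 fold change -2.14, standard error 0.70, adjusted p = 0.189, limma). Of the 50-base stretches of Cd55b, 25.9% occur also in Cd55. Cr1l (Crry), a cell surface inhibitor of C3 convertases, had 977, 2693 and 1475 normalized counts in control and 1382, 1691 and 1936 in ILK-K5 libraries (log2 fold change 0.07, standard error 0.37, adjusted p = 0.973, limma). Cd59a, which blocks the membrane pore, had 385, 961 and 362 in control and 755, 624 and 466 in ILK-K5 libraries (log2 fold change 0.24, standard error 0.40, adjusted p = 0.911, limma). For both genes the genotypes overlapped.

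**Figure D4:**
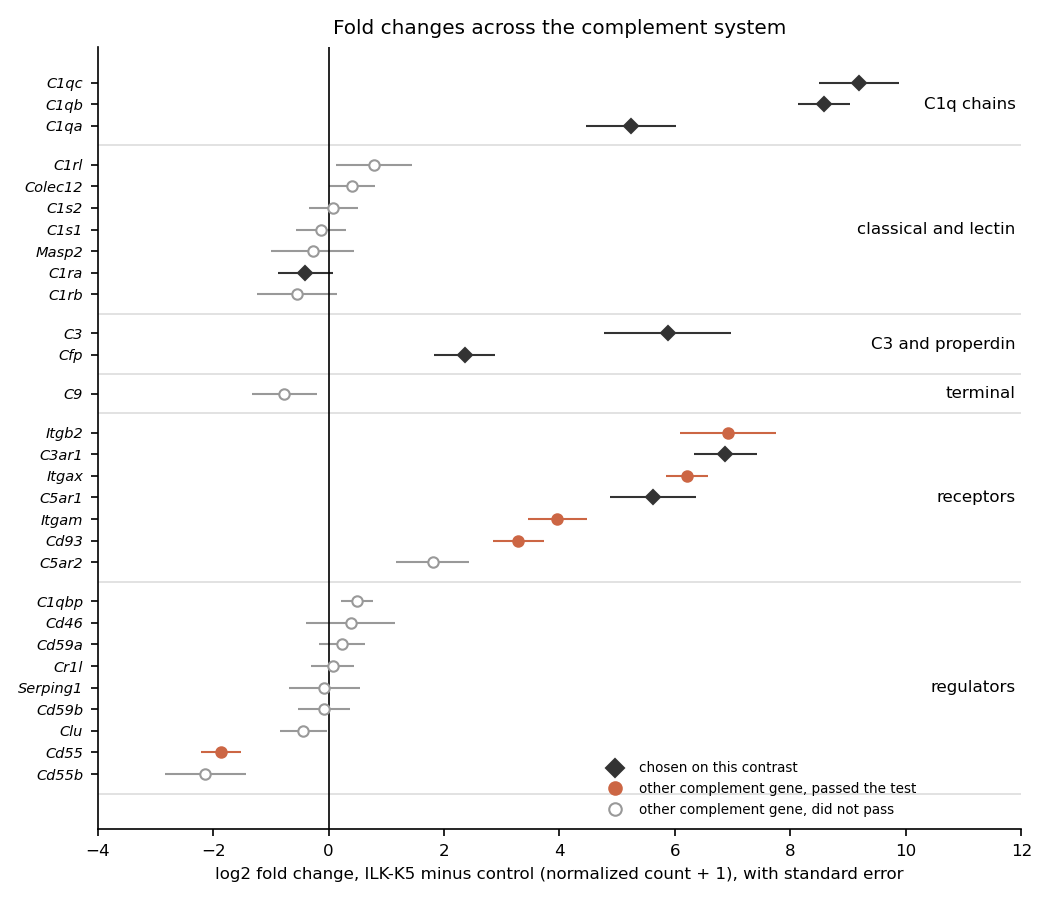
Log2 fold change (ILK-K5 minus control, on normalized count plus 1) with its standard error for the complement genes tested, grouped by role. Diamonds are the genes chosen on this contrast, and those of C1qa, C1qb, C1qc and C5ar1, with 6 or fewer reads in every control library, depend on the added 1. So do C3 and Itgb2, which each have a control library at 0. With 5 or 0.1 added, C3 is at 4.73 or 7.11 and Itgb2 at 5.70 or 8.18. Circles are the other complement genes, filled where adjusted p was at most 0.05 (limma): Itgb2, Itgax, Itgam and Cd93 are higher, Cd55 is lower, and the tested genes of the classical and lectin pathways and C9 are not called.

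Genes with profiles most like those of the C1q chains were sought among all tested genes with a symbol, by Pearson's r with the mean log2 value of the 3 chains over the 6 libraries. The nearest were Clec7a, Lair1, Gm15922, Fcgr1 and F7, all with r of 0.998 or more. In all, 65 genes had an r above 0.99. Clec7a, the β-glucan receptor Dectin-1, had 12.5, 10.6 and 15.2 normalized counts in control and 383, 450 and 394 in ILK-K5 libraries, and F7, which encodes coagulation factor VII, had 0 in all controls and 105, 163 and 130 in ILK-K5 libraries. The profile of C3, with its high value in control library 1, was close to those of Trem2, Stac2, Tspan13 and Rac2, at r of 0.992 or more. Trem2, a lipid receptor of macrophages, had 20.3, 0 and 1.45 normalized counts in control and 121, 123 and 88.6 in ILK-K5 libraries, and thus shared with C3 the high value in control library 1. These correlations describe 6 libraries that share a genotype difference and carry no test.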

How the data were processed

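Per the labels and the study's methods, RNA of sorted bulge SCs was amplified as cDNA (Ovation RNA-Seq System V2), made into Nextera XT libraries and sequenced as read pairs, and reads were aligned to GRCm38. The submitters' processing notes name TopHat2 2.0.14, Bowtie2 2.2.4 and DESeq2 1.6.3. The program that counted reads per gene is not given in the sources used here. The authors deposited a signal table of normalized counts and a table of FPKM. In every library 100% of the normalized values were whole multiples of 1 value (tolerance 1e-06), the worth of 1 read, from which the reads were recovered. Each deposited FPKM value is the normalized count scaled by a factor of its gene. The authors' own comparisons (fold changes and p-values) were not used. Symbols (97.3% of 43274 genes) and exons came from GENCODE M21.

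Genotypes were compared with limma 3.58.1 (lmFit, eBayes with trend, two-sided) in R 4.3.3 on log2 of normalized count plus 1, for the 16368 genes averaging 10 normalized counts or more. Calls required p of 0.05 or less after Benjamini-Hochberg adjustment over all of them. The fit was tested on simulated data. Genes at or under 3 reads in each control library were given as lower bounds against a floor of 3 reads per library, which covers counting error only. Alternatives were other pseudocounts, filters and scalings, the FPKM table, edgeR 4.0.16 and DESeq2 1.42.0 on the recovered reads, a replicate block, replicates 2 and 3 only, and each library left out. The members and lists were chosen with earlier results of these data known. Named were the 9 members, called genes of the other lists, up to 2 of the most abundant uncalled genes per list, and genes among the 5 most like the C1q chains and the 5 most like C3, of which 1 is not reported here. Other genes, such as C1rb, Cd55b, Fcna and the C1qtnf genes, were named after their values were seen. Likeness to Cfb was not computed because of its low counts. Python 3.11.15, pandas 2.3.3 and matplotlib 3.10.9 served for tables and plots.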

Additional observations from a re-analysis of the deposited data

How the results depend on the processing

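The 4 receptor genes outside the group of 9 (Itgam, Itgax, Itgb2 and Cd93) were called higher under every alternative, and Cd55 was called lower in all 11 with all libraries or replicates 2 and 3. The number of other complement genes called lower fell from 1 to 0 without control library 2, ILK-K5 library 2 or ILK-K5 library 3 (range 0 to 1). The number of the 9 genes called higher, 7, was 3 to 7 when single libraries were left out and 4 with a minimum mean of 50, where only 5 of them were tested. With 0.1 added it was 5, without C3 and Cfp. It was 6, without Cfp, under quantile normalization, with edgeR and with replicates 2 and 3 only. Over all genes, the 479 higher and 98 lower calls became 772 and 280 with DESeq2 on the recovered reads and lay between 217 and 554 higher and between 32 and 93 lower without single libraries (both lowest without ILK-K5 library 2), and the cause was not tested. With a replicate block they became 848 and 269, and the block changed no call among the complement genes. Same-numbered libraries did not all deviate together (correlations of 0.529, 0.020 and 0.307 for replicates 1, 2 and 3), and control library 3 correlated best with ILK-K5 library 2 (0.498). The column names of the tables also share an identifier within each number, and the study's controls were littermates, but the labels do not say that the numbers mark pairs. The log2 fold changes of the genes near 0 in control depend on the pseudocount, from 7.38 to 11.49 for C1qc and from 3.38 to 7.61 for C1qa over the alternatives with all libraries or replicates 2 and 3. Per kilobase of the longest transcript, chosen after the data were seen, the ratio of C1qc to C1qa was 17.7. Without single ILK-K5 libraries the FPKM ratio of C1qc to C1qa lay between 9.44 and 13.5, and that of C1qb to C1qa between 16.9 and 21.5.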

Other observations

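The globular domain of the C1q chains also occurs in proteins outside complement, and a list of 23 such genes had 8 with enough counts for a test. Of these 1 was called, Emilin2, which encodes a matrix glycoprotein, where 3.53% of all genes tested were called. It had 0, 9.12 and 1.45 normalized counts in control and 384, 325.5 and 193 in ILK-K5 libraries. The rise was 6.63 on the log2 scale (standard error 0.81, adjusted p = 0.00214, limma), 5.86 without control library 1 and 7.53 without control library 2. With a control mean of 3.52, Emilin2 passed the limit for testing only through its ILK-K5 libraries. Among the 7 genes not called, C1qtnf1, C1qtnf3 and C1qtnf12 were below all control libraries in all ILK-K5 libraries, and C1qtnf6 and Emilin1 above them. Of all genes tested 6.95% lay below and 10.9% above in this way. C1qtnf12, a secreted relative of adiponectin, had 669, 591.5 and 863 normalized counts in control and 355, 494 and 453 in ILK-K5 libraries (log2 fold change -0.70, adjusted p = 0.304, limma). C1qtnf3 had 104, 42.6 and 53.7 in control and 23.9, 10.8 and 4.87 in ILK-K5 libraries (log2 fold change -2.39, adjusted p = 0.104, limma), and C1qtnf1 a log2 fold change of -1.73 (adjusted p = 0.139, limma). Both were called lower by DESeq2 on the recovered reads and with a replicate block. C1qtnf1 shares 20.5% of its exon bases with a gene on the opposite strand. The adiponectin gene Adipoq itself had 0 reads in all 6 libraries.

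The genes next to the C1q cluster on chromosome 4 gave mixed values. Epha8, beside C1qa, had 0 reads in every library. Ephb2, on the other side of C1qb, had 178, 181 and 84.2 normalized counts in control and 132, 81.0 and 86.7 in ILK-K5 libraries, and the genotypes overlapped. Zbtb40, beyond Epha8, had 64.6, 38.0 and 91.4 in control and 116, 103 and 100.3 in ILK-K5 libraries, so that all ILK-K5 libraries lay above all controls, by far less than for the C1q chains.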
